A study of Mus musculus with 8 samples.

Results

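Nucleostemin (NS), the product of Gnl3, is a GTP-binding protein of the nucleolus, and the data below follow Gnl3 and its relatives Gnl3l, Gnl2, Gnl1 and Lsg1 through the shut-off of NS in mouse embryonic stem cells (ESCs). These 5 genes were taken by name, with every probe set that the array annotation gives to 1 of them alone. That yielded 7 of the 45101 probe sets, for 4 of the 18194 genes with a probe set of their own: 1 for Gnl3, 2 for Gnl3l, 3 for Gnl2 and 1 for Lsg1. No probe set could be assigned to Gnl1, a cytoplasmic and nuclear relative whose function is less well known, and its level is not analysed here.

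Proteins of this family carry the sequence motifs of a GTPase in a circularly permuted order, so that the motifs that recognize guanine come before the loop that holds the phosphates. NS moves between nucleolus and nucleoplasm, takes part in processing of pre-ribosomal RNA, binds Mdm2 and is abundant in stem cells and tumour cells. Gnl3l is its closest vertebrate relative, Gnl2 acts in the nucleolus in assembly of the large (60S) ribosomal subunit, and Lsg1 acts in the cytoplasm, where it takes the export adaptor Nmd3 off the nearly finished 60S subunit.

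The cells were NS tet-off ESCs, a male line of 129sv background. Both copies of the NS gene are disrupted in it, and an NS cDNA in the ROSA26 locus is expressed under the tetracycline-off system until doxycycline (Dox) is added. All 8 groups therefore depend on the transgene for NS, the Dox-untreated ones included. Each group had 1 array. They were cells with an empty vector, the same empty-vector cells in the 2i condition (inhibitors of MEK and of GSK3b), Nanog-overexpressing cells and Esrrb-overexpressing cells, each with and without Dox, which was given over 6 days. The methods give stable integration of the Nanog and Esrrb vectors under puromycin selection, and the number of clones behind each array is not given in the sources used here. A Dox-treated and a Dox-untreated array of 1 background form a pair, whose log2 ratio is its treated minus its untreated value.

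As a check of the tissue label, 8 of 8 ESC markers lay above the array median on every Dox-untreated array. Their summed signal, on the log2 scale, was 15.94 to 16.05 on untreated and 15.80 to 16.16 on treated arrays. That sum mostly follows the brightest markers. The median log2 ratio of the ESC markers was -0.32 for empty-vector cells, -0.07 for 2i cells, 0.08 for Nanog cells and 0.16 for Esrrb cells. The summed signal of 8 fibroblast markers was at most 9.33, and 6 of the 8 were above the median of no array. Trophoblast markers (8 of 8 measured) summed to 10.49 to 11.20 on the untreated arrays and to 13.70, 12.36, 10.83 and 11.02 on the treated empty vector, 2i, Nanog and Esrrb arrays. The 6 endoderm markers stood highest on the untreated Esrrb array, at 10.20 against 7.90 to 8.63 on the other untreated arrays. In these bulk samples fewer cells of a type and less RNA per cell cannot be told apart. Some labels could not be read from the signal. Dusp6, which MEK signalling induces, stood at 10.95 on the untreated 2i array and 10.97 on the untreated empty vector array, but at 7.63 on the treated 2i array. Spry4, another such gene, stood at 9.92 and 10.17 on these untreated arrays and at 4.07 on the treated 2i array. In the 2i pair an effect of Dox and one of the inhibitors therefore cannot be told apart. The 1 probe set of Nanog was lower on the Nanog than on the empty vector arrays, by 0.45 untreated and 0.26 treated, and the 3 of Esrrb differed between the Esrrb and empty vector arrays by -0.05 to 0.74 untreated and 0.84 to 2.02 treated. Whether those probe sets lie in the vectors' cDNA is not given in the sources used here, so they do not test the forced expression.

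Gnl3 fell to a few percent of its signal in every background. On the Dox-untreated arrays its log2 signal was 13.47 in empty-vector cells, 13.54 in 2i cells, 13.68 in Nanog cells and 13.61 in Esrrb cells. On the Dox-treated arrays it was 7.79, 8.01, 9.13 and 8.61 in the same order. All 4 treated arrays thus lay far below all 4 untreated ones, with no overlap. Of all genes 8.96% had every treated array below every untreated one. The treated signal was 1.95% of the untreated one in empty-vector cells, 2.17% in 2i cells, 4.25% in Nanog cells and 3.13% in Esrrb cells. These percentages rest on 1 probe set. Whether it lies in the NS cDNA, or also reads RNA of the disrupted gene, is not given in the sources used here. Across the 4 backgrounds Gnl3 fell by 5.19 on the log2 scale (4 of 4 pairs, standard error 0.191, 95% interval -5.66 to -4.72, limma adjusted p = 0.00278). This was the lowest value of all 18194 genes.

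Genes over 2-fold lower made up 3.85% of all genes for empty-vector cells, 3.1% for 2i cells, 1.17% for Nanog cells and 0.967% for Esrrb cells. Of the 4 measured family genes Gnl3 was the 1 among them, in each pair. Its log2 ratio was the lowest of all genes in the empty vector, Nanog and Esrrb pairs and stood at rank 2 from the bottom in the 2i pair. The next lowest common coefficient of any gene was -2.82, as the histogram over all genes shows.

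**Figure D1:**
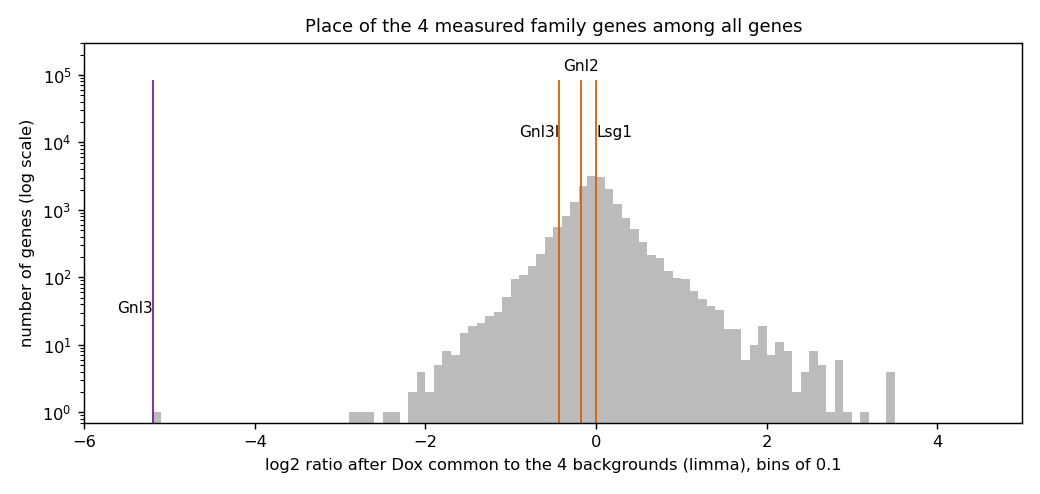
Genes counted on a log scale (vertical axis) by the log2 ratio after Dox common to the 4 backgrounds (horizontal axis, limma, bins of 0.1), with vertical lines at the 4 measured family genes. Gnl3 stands alone at -5.19, whereas Gnl3l at -0.43, Gnl2 at -0.18 and Lsg1 at 0.00 lie within the body of the distribution.

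The signal left after Dox was not the same in all backgrounds. It was lowest in empty-vector cells, higher by 0.22 in 2i cells, by 0.82 in Esrrb cells and by 1.34 in Nanog cells, the last being 2.53 times the empty vector value on the linear scale. The untreated arrays had the same order (empty vector, 2i, Esrrb, Nanog), but spanned only 0.22. The residual SD of Gnl3 in the limma fit, 0.363, reflects only the spread of the pair ratios. It gives no noise between arrays to judge these gaps by. Without replicates, the order itself has no replicate check.

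The mean log2 ratio of Gnl3 was -4.78 over the Nanog and Esrrb pairs and -5.60 over the other pairs. The difference of 0.83 (standard error 0.177) did not pass after adjustment over all genes (limma adjusted p = 0.114, unadjusted p = 0.00418). In this comparison 0.0824% of all genes were called. With a pair left out, 1 pair stands alone on its side and 1 residual degree of freedom is left. In those limma fits the adjusted p of Gnl3 was 0.0153 without the empty vector pair and 0.00521 without the 2i pair, where 2092 and 2217 genes were called, but 0.591 without the Nanog pair and 0.582 without the Esrrb pair. On the treated arrays the signal still exceeded 74.1% of all probe sets in empty-vector cells and 84.9% in Nanog cells, against at least 99.5% on the untreated arrays. What the remaining signal stems from was not tested.

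**Figure D2:**
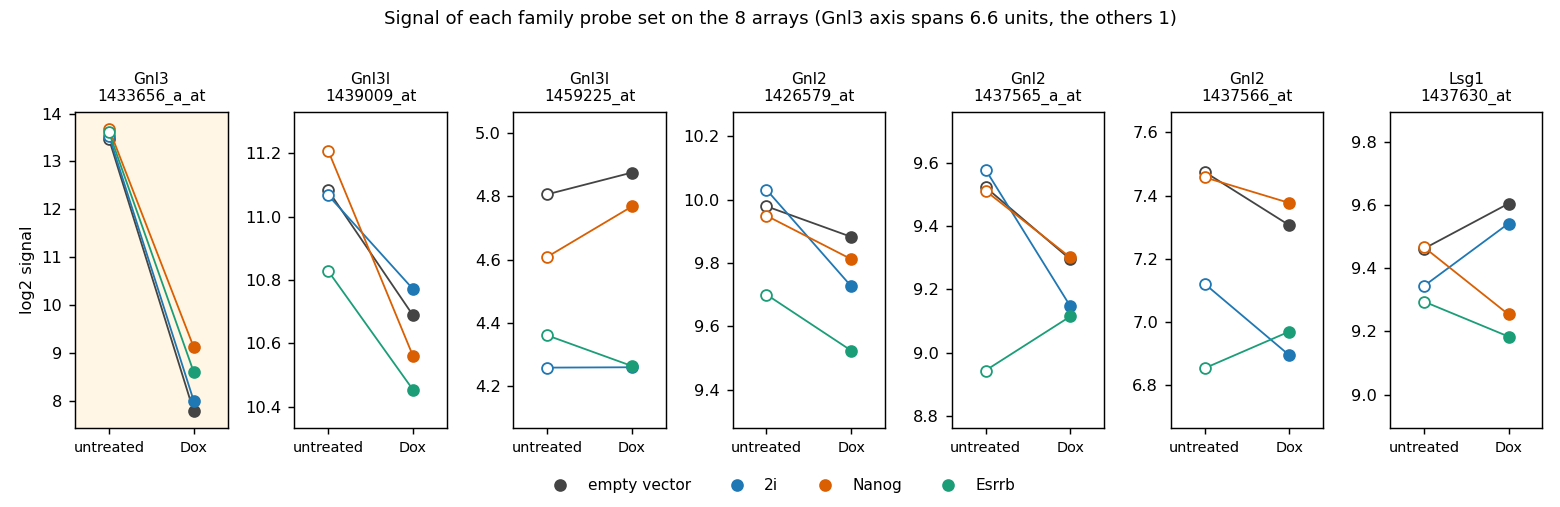
Log2 signal (vertical axes) of the 7 family probe sets on Dox-untreated (open circles) and Dox-treated arrays (filled circles), joined within each background by colour, 1 array per point. The Gnl3 axis spans 6.6 units and the others 1. Gnl3 and the first probe set of Gnl3l are lower on all treated arrays than on any untreated one, as are 8.96% of all genes. The ratios of Lsg1 part the backgrounds.

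None of the 3 measured relatives was called higher after Dox. Among all genes 3.69% were called higher and 3.39% lower in the response common to the 4 backgrounds. At such shares no higher call among 3 genes is the usual outcome, and it says little about the relatives. The single relative that passed, near the threshold, did so in the direction of Gnl3, by a far smaller amount.

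That relative was Gnl3l, which shares with NS a nucleolar address and binding to Mdm2. Its brighter probe set, 1439009_at, read 11.08 on the untreated empty vector array and 10.69 on the treated one. It read 11.07 and 10.77 in the 2i pair, 11.21 and 10.56 in the Nanog pair, and 10.83 and 10.45 in the Esrrb pair. Every treated array stood below every untreated array, a pattern that 8.96% of all genes show. Gnl3l fell by 0.43 on the log2 scale (4 of 4 pairs, standard error 0.0831, limma adjusted p = 0.0421), to 74.3% of the untreated signal with a 95% interval from 64.5% to 85.5%. The fall was 0.65 in the Nanog pair and 0.30 to 0.39 in the other pairs.

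Gnl3l was, however, near the threshold. It had an adjusted p of 0.0560 with limma fitted without a variance trend, and leaving out the empty vector, 2i, Nanog or Esrrb pair gave adjusted p-values of 0.111, 0.0944, 0.120 and 0.104, with falls of 0.36 to 0.47. Its other probe set, 1459225_at, was dim, with 4.26 to 4.88 on all arrays, below the array medians of 5.31 to 5.36. It did not follow, at 0.03 (95% interval -0.20 to 0.26, adjusted p = 0.871 from limma over all probe sets), and the mean of both probe sets gave -0.20 with an adjusted p of 0.182. Over all probe sets 3.37% were called lower and 2.65% higher, and of the 7 in the family 2 were called, 1433656_a_at of Gnl3 and 1439009_at of Gnl3l (adjusted p = 0.00176 and 0.0391 from limma).

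Gnl2, the nucleolar 60S assembly factor, was slightly lower after Dox without passing the test. Its brightest probe set, 1426579_at, read 9.98 and 9.88 on the untreated and treated empty vector arrays, 10.03 and 9.73 in 2i cells, 9.95 and 9.81 in Nanog cells, and 9.70 and 9.52 in Esrrb cells. Each treated array was below its own untreated array, but the groups overlapped, the untreated Esrrb array lying below 3 of the 4 treated ones. The common coefficient was -0.18 (4 of 4 pairs below 0, standard error 0.0803, limma adjusted p = 0.215), or 88.3% of the untreated signal with a 95% interval from 77.1% to 101%. Among all genes 19.1% were lower in all pairs.

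The other Gnl2 probe sets parted from the first in the Esrrb pair. Probe set 1437565_a_at had log2 ratios of -0.23 for empty-vector cells, -0.43 for 2i cells, -0.21 for Nanog cells and 0.17 for Esrrb cells. For 1437566_at they were -0.17, -0.23, -0.08 and 0.12. In the Esrrb pair both start from an untreated value, 8.94 and 6.85, that is the lowest of all 8 arrays for that probe set. Their common coefficients were -0.17 (adjusted p = 0.426) and -0.09 (adjusted p = 0.683, both from limma over all probe sets).

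Lsg1, the cytoplasmic GTPase, had Dox ratios of both signs, in a split by background that did not pass. Its probe set 1437630_at read 9.46 untreated and 9.60 treated in empty-vector cells and 9.34 and 9.54 in 2i cells. In Nanog cells it read 9.47 and 9.25, and in Esrrb cells 9.29 and 9.18. The signal was thus higher after Dox in the empty vector and 2i pairs and lower in the Nanog and Esrrb pairs, and on the treated arrays the former lie above the latter. The share of all genes that split this way was not counted. The common coefficient was 0.00 (above 0 in 2 of 4 pairs, standard error 0.105, limma adjusted p = 0.987), with a 95% interval from 84.0% to 120% of the untreated signal, and its sign turned to -0.0090 when each array was centred on its median.

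The difference between the Nanog and Esrrb pairs and the other pairs was -0.33 for Lsg1 (standard error 0.139, 95% interval -0.68 to 0.01), and it did not pass (adjusted p = 0.337 from limma). The median log2 ratio of the 8 trophoblast markers was 2.32 for empty-vector cells, 1.44 for 2i cells, 0.16 for Nanog cells and -0.02 for Esrrb cells, and the part of these markers in the Lsg1 values was not tested. For Gnl3l and Gnl2 the same difference was -0.17 (95% interval -0.52 to 0.18, adjusted p = 0.648) and 0.04 (95% interval -0.31 to 0.40, adjusted p = 0.928, both from limma).

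**Figure D3:**
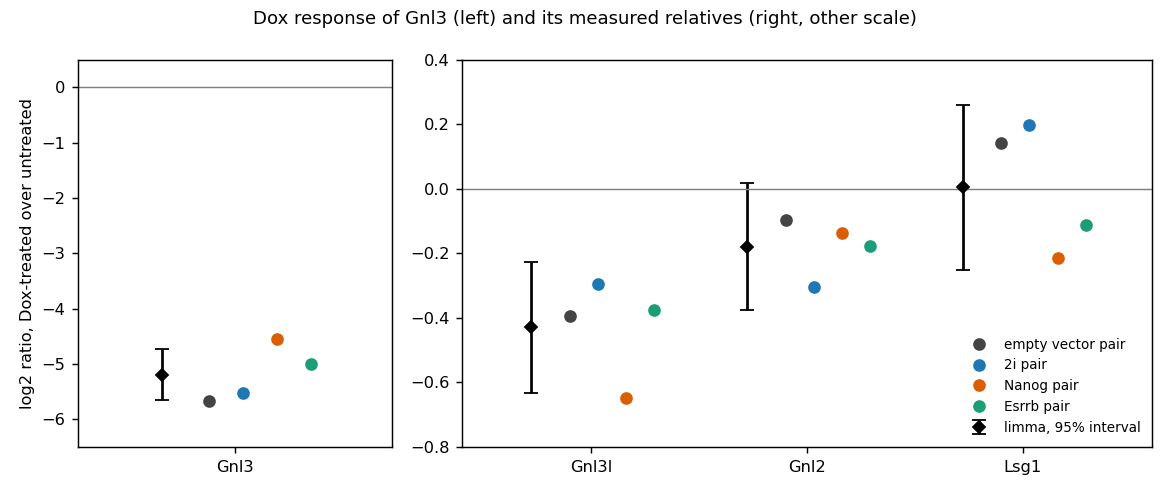
Change of log2 signal on Dox, treated minus untreated (vertical axes, with different scales left and right) of Gnl3, Gnl3l, Gnl2 and Lsg1 in each pair (coloured points), with the limma estimate over the 4 backgrounds and its 95% interval (black diamonds and bars). The intervals of Gnl3 and Gnl3l lie below 0, and those of Gnl2 and Lsg1 include 0.

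Before Dox the brightest probe sets of the relatives differed in 2i from empty-vector cells by -0.02 for Gnl3l, 0.05 for Gnl2 and -0.12 for Lsg1. Of the others, Gnl2 1437566_at read 7.12 on the untreated 2i array and 7.47 on the untreated empty vector array. On the same 2 arrays the dim Gnl3l 1459225_at read 4.26 and 4.81, and Gnl2 1437565_a_at 9.58 and 9.52. On the untreated Esrrb array Gnl3l was 0.25, Gnl2 0.28 and Lsg1 0.17 below the untreated empty vector array (log2 signal, brightest probe set), whereas Gnl3 was 0.14 above it. After Dox the same 3 genes were again lower in Esrrb than in empty-vector cells, by 0.24, 0.36 and 0.42. Nanog cells stood within 0.13 of empty-vector cells for all 3 relatives before Dox, and after Dox they were lower by 0.13 for Gnl3l, 0.07 for Gnl2 and 0.35 for Lsg1. Each of these differences rests on 1 array a side. The residual SDs in the fit over probe sets (0.108 for Gnl3l, 0.0639 for Gnl2, 0.140 for Lsg1) reflect only the spread of the pair ratios. They give no noise between arrays to judge these differences by.

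Over the 8 arrays, which were normalized together and of which 4 are Dox-treated and 4 Dox-untreated, the signal of Gnl3l correlated with that of Gnl3 at r = 0.814 and with that of Gnl2 at r = 0.786. Lsg1 correlated with Gnl3 at r = -0.130. Among 9096 genes brighter than the median gene, those closest to Gnl3 in pattern over the 8 arrays were Sec23ip (r = 0.993), a factor of vesicle transport from the endoplasmic reticulum, Tango6 (r = 0.992), Hrk (r = 0.989), Rmdn3 (r = 0.987) and the cell polarity gene Pard3 (r = 0.985). Because Gnl3 itself parts treated from untreated arrays, the choice by likeness to it favours genes with a Dox change in every pair. The adjusted p-values of genes so chosen are therefore no separate support. Likeness of pattern says nothing of size. Hrk, which encodes a pro-apoptotic protein of the Bcl2 family, fell by 1.87 on the log2 scale (4 of 4 pairs, limma adjusted p = 0.0144), while Sec23ip had -0.13 and did not pass (adjusted p = 0.274 from limma).

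The genes most opposite to Gnl3 were Lsm7 (r = -0.995), a subunit of an RNA-binding ring, Mtcl1 (r = -0.992), the receptor-type phosphatase gene Ptprv (r = -0.989), Slc22a17 (r = -0.988) and Camsap3 (r = -0.987), which encodes a protein of microtubule minus ends. Ptprv rose by 2.60 on the log2 scale (4 of 4 pairs, limma adjusted p = 0.0118) and Camsap3 by 1.20 (adjusted p = 0.0213). Lsm7 rose by 0.41 (adjusted p = 0.0337 from limma). The choice by opposite pattern to Gnl3 favours such rises.

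The genes around the family, in 60S assembly or as other GTPases linked to the ribosome, were given by 3 lists. Another list held known partners of NS and Gnl3l together with genes linked to them, such as Cdkn1a and Myc. Of 67 distinct measured genes in these 4 lists, 5 were called lower and 3 higher in the common Dox response, beside 3.39% and 3.69% of all genes. The median coefficient over all genes was 0.00, and 19.1% of all genes were lower in all pairs.

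Among 11 other GTPases linked to the ribosome 1 was called lower, Gtpbp10, which acts on the mitochondrial ribosome, and 0 were called higher. Gtpbp10 fell by 0.61 on the log2 scale (4 of 4 pairs, limma adjusted p = 0.0473). Noa1 and Mtg1, mitochondrial GTPases with the same permuted motif order as NS, had 0.36 and 0.11 (adjusted p = 0.111 and 0.568 from limma). The median of the list was -0.01.

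Of 40 genes of nuclear 60S assembly 2 were called lower, or 5.0%, and 3 higher, or 7.5%, with a median of 0.06. Tma16, a nuclear pre-60S factor, fell by 0.61 and Senp3, a nucleolar SUMO protease, by 0.45. Ebna1bp2, a nucleolar factor of the early pre-60S particle, rose by 0.38, Nop53, which acts in removal of the internal spacer RNA, by 0.35, and Mybbp1a, a nucleolar protein that binds Myb, by 0.30. Each moved the same way in 4 of 4 pairs (limma adjusted p = 0.0342 for Tma16, 0.0493 for Senp3, 0.0420 for Ebna1bp2, 0.0368 for Nop53 and 0.0460 for Mybbp1a). Other probe sets of Tma16 reached 0.27, of Ebna1bp2 0.08 and of Nop53 0.00.

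Of 9 measured genes of late 60S maturation and export 2 were called lower and 0 higher, with a median of -0.16. Eif6, which keeps the 60S subunit from joining the small subunit until it is released, fell by 0.52 (4 of 4 pairs, limma adjusted p = 0.0222), although its other probe set had -0.06. Zfp622, the counterpart of a yeast 60S maturation factor, fell by 0.33 (limma adjusted p = 0.0279), and all 5 of its probe sets were lower, by 0.19 to 0.73. Nmd3, the export adaptor that Lsg1 releases, had -0.01 (adjusted p = 0.931 from limma). The other 5 genes of this list are not analysed here.

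Of the 8 calls in these lists, 2 held when the probe sets of a gene were averaged (Mybbp1a and Zfp622) and 2 without a variance trend (Tma16 and Eif6). Senp3 also lost its call without probe sets ending in _x_at or _s_at (limma adjusted p = 0.0503), with robust eBayes (0.0513) and without the background block (0.0992), and Tma16 without the block (0.0743). With any 1 pair left out 0 of the 8 held; those fits hold 6 arrays, and in them Gnl3 passed each time.

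**Figure D4:**
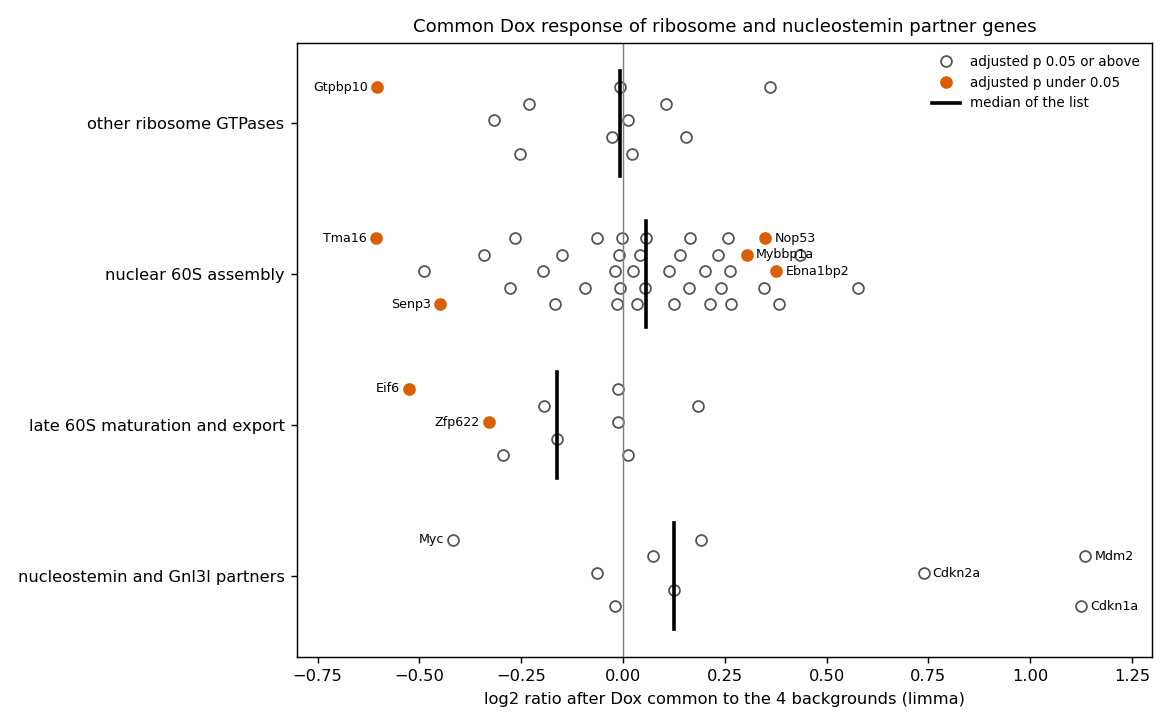
Log2 ratio after Dox common to the 4 backgrounds (horizontal axis, limma) of each measured gene in 4 lists (rows, points spread vertically for legibility), with filled points at an adjusted p under 0.05 and a bar at each list's median. The 8 filled points lie on both sides of 0, and Mdm2 and Cdkn1a stand farthest to the right without passing.

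The list of partners and linked genes held the largest values of these lists but 0 calls (9 measured genes, 0 lower and 0 higher, median 0.12). Those values were of Mdm2 and of the linked genes Cdkn1a and Cdkn2a, and the other binding partners changed little. Mdm2, the ubiquitin ligase for p53 that NS and Gnl3l both bind, read 10.54 and 12.76 on the untreated and treated empty vector arrays and 10.38 and 11.92 in 2i cells. It read 10.60 and 10.97 in Nanog cells and 10.62 and 11.04 in Esrrb cells. Every treated array was above every untreated one, as for 8.79% of all genes, with the larger steps in empty-vector and 2i cells. The common coefficient was 1.14 (4 of 4 pairs above 0, standard error 0.323, limma adjusted p = 0.0868). The difference of the Nanog and Esrrb pairs from the others was -1.48 (standard error 0.228, limma adjusted p = 0.0660), short of the threshold.

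Cdkn1a, a cell cycle inhibitor gene induced by p53, had a similar course, with log2 ratios of 1.46 for empty-vector, 2.16 for 2i, 0.48 for Nanog and 0.39 for Esrrb cells (common coefficient 1.12, limma adjusted p = 0.0781). Cdkn2a, whose alternative product Arf holds Mdm2 in the nucleolus, had 1.51, 0.51, 0.52 and 0.41 (limma adjusted p = 0.0842). Myc, a known activator of the NS gene in its native locus, had 0.26, -2.07, -0.04 and 0.18 (limma adjusted p = 0.553), the low value being that of the 2i pair with its unequal Dusp6 and Spry4 signals. Without that pair its common coefficient was 0.13. Among further genes of this list, Npm1 had -0.06, Rsl1d1 0.12, Rpl11 -0.02 and the telomere protein gene Terf1 0.19, none of which passed (adjusted p from 0.225 to 0.815, limma). The other 3 genes of this list are not analysed here.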

How the data were processed

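Affymetrix mouse arrays measured RNA of 8 conditions, 1 array each. The authors ran RMA (affy package, R) to make the deposited log2 signal values, that is background subtraction, quantile normalization and summary of probes into probe sets, which would hide a shift of all genes in 1 direction. Their versions are not given here by any source, and the log base was read from the values (1.82 to 14.6). The values were used as deposited, and every value column belonged to 1 of the samples. Arrays have no read depth, and their number limits the precision. Probe positions and sequences were not used here.

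Groups came from the labels. Of 45101 probe sets, 34958 have 1 symbol in the platform annotation, 932 several and 9211 none; 34754 of the first matched RefSeq by Entrez ID and 0 symbols changed. A gene took its probe set with the highest mean. limma 3.58.1 in R 4.3.3 (lmFit, eBayes with a trend) fitted the Dox response common to the 4 backgrounds with background as a block (3 residual degrees of freedom), for genes and for all probe sets, and the difference between Nanog and Esrrb pairs and empty vector and 2i pairs (2 residual degrees of freedom). The backgrounds, which differ in vector or medium, serve as replicates, so p-values measure only the spread between them, and no condition was repeated. Adjustment was by Benjamini and Hochberg, over all genes or all probe sets (threshold 0.05). 95% intervals are not adjusted. The fits were tested on simulated data. Python 3.11.15, numpy 2.4.6, pandas 2.3.3 and matplotlib 3.10.9 did the rest.

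The members and lists were chosen with earlier results of these data known. Named genes are the family, the list genes that passed or were over 2-fold changed in any pair (at most 5 a list, by absolute coefficient), the 5 genes of highest and 5 of lowest Pearson correlation with Gnl3, and the 3 of highest with each relative, among genes above the median signal. Mtg1, Noa1, Nmd3, Npm1, Rsl1d1, Rpl11, Terf1, Dusp6 and Spry4 are outside this rule and were picked with values known. Alternative settings were averaged probe sets, no _x_at or _s_at probe sets, a filter on dim probe sets, repeated quantile normalization, median centring, eBayes without a trend or robust, no background block, and each pair left out in turn, this last one added for the difference after seeing the data.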

Additional observations from a re-analysis of the deposited data

Results flagged for a closer look

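Among the 4 Dox-untreated arrays, the signal of Gnl2 probe set 1437565_a_at on the Esrrb array (8.94) stood apart from 9.51 to 9.58 on the others, with a gap that is 0.895 of the whole range. It was the 1 stray value among 21 groups of 4 values looked at, and chance gives about 1 in 20.

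The Dox response of Lsg1 had opposite signs in the empty vector and 2i pairs (0.14 and 0.20) against the pairs of Nanog cells (-0.21) and Esrrb cells (-0.11). The difference of -0.33 did not pass limma's test over all genes (adjusted p = 0.337). For opposite signs 16 genes were looked at, and the share of all genes with this split was not counted.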

How the results depend on the processing

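Gnl3 passed in the common response under all 8 settings with all pairs (-5.20 to -5.18) and with each pair left out (-5.40 to -5.03, adjusted p from 0.00416 to 0.0477, limma). Gnl3l passed in 6 of those 8 settings, not with averaged probe sets (-0.20) or without a trend (-0.43), and in 0 of 4 with a pair left out (-0.47 to -0.36). Gnl2 never passed (-0.21 to -0.14 with a pair left out). Lsg1, as gene and probe set, turned to -0.0090 when centred and ran from -0.060 to 0.077 with a pair left out. The dim Gnl3l probe set ran from -0.0090 to 0.076, and Myc from -0.64 to 0.13 (positive without the 2i pair). Genes called numbered 3 to 35 rather than 1287 and probe sets 3 to 272 rather than 2712 with a pair left out; the cause, beside fewer arrays, was not tested.

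Averaged probe sets and no trend each left 0 of 1 other GTPase, 1 of 5 nuclear assembly genes and 1 of 2 late maturation genes called; a pair left out left 0 of each. Without the background block 1 gene of the list of partners and linked genes (Cdkn1a) was called rather than 0. For the difference between pairs, 15 genes were called, but 1 without a trend, 1 with averaged probe sets, 77 when centred, 0 with the dim filter and 0 to 2217 with a pair left out, where 1 pair stands alone and is assumed to vary like the others. In those fits Gnl3 had 0.60 to 1.05 (limma adjusted p = 0.0153 without the empty vector, 0.00521 without the 2i, 0.591 without the Nanog and 0.582 without the Esrrb pair), and Gnl2 had -0.061 to 0.15, below 0 without the 2i pair. The labels number no replicates, and the common response was already paired by background.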

Other observations

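For the relatives, the genes closest in pattern over the 8 arrays, among 9096 genes brighter than the median gene, were other genes than for Gnl3. Closest to Gnl3l were the mitochondrial ribosomal protein gene Mrpl9 (r = 0.991), the oligosaccharyltransferase subunit gene Rpn2 (r = 0.989) and Dnttip2 (r = 0.975), a nucleolar protein gene. Dnttip2 fell after Dox by 0.30 on the log2 scale (4 of 4 pairs, limma adjusted p = 0.0495), and Mrpl9 and Rpn2 had -0.43 and -0.33 without passing (adjusted p = 0.0615 and 0.0607). The choice by likeness to Gnl3l, which was lower on all treated arrays, favours such falls. Closest to Gnl2 were Diaph2 (r = 0.960), Tbc1d20 (r = 0.956) and Exog (r = 0.953), none of which passed in the common response (adjusted p from 0.224 to 0.322, limma). Closest to Lsg1 were Apoo (r = 0.954), a gene of mitochondrial inner membrane organization, the amino acid transporter gene Slc43a2 (r = 0.949) and Ccdc47 (r = 0.947). Like Lsg1, these 3 had log2 ratios above 0 in the empty vector and 2i pairs and below 0 in the Nanog and Esrrb pairs, as the choice by likeness to Lsg1 favours.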
